A study of Homo sapiens with 6 samples.

Results

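A group of 9 genes that set and keep epithelial identity were followed across the 6 libraries of the series. They are the grainyhead-like factors GRHL1, GRHL2 and GRHL3, the OVO-like zinc finger factors OVOL1 and OVOL2, the splicing regulators ESRP1 and ESRP2, and the ETS factors ELF3 and EHF. The genes were taken by symbol from the deposited table of raw counts, and all 9 listed symbols were among its 16229 genes. They were chosen by readouts of GCA against CON in these same libraries, so the members' differences between the groups are given as a description, with no p-value.

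RNA was sequenced from a colorectal cancer line labelled MC38, wild type, kept for 24 hours with GCA or without it (CON), with 3 libraries per group. The series' title names glycocholic acid, a bile acid conjugated with glycine, and this is taken as the meaning of GCA. No dose is printed, as it was not given in the sources used here. All 3 GCA samples carry titles that read fa, so every GCA value rests on the treatment label. Human is the labelled organism, with hg38 as build and human gene symbols, although MC38 is known to come from a mouse, and the extraction protocol speaks of heart samples. The labels do not say whether replicates were separate cultures, so p-values reflect variation among these libraries alone, possibly technical.

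Grainyhead-like factors bind DNA at the regulatory regions of junction, adhesion and barrier genes and are known for holding cells in an epithelial state. OVO-like factors repress genes of the mesenchymal state, among them that of the repressor ZEB1. ESRP1 and ESRP2 bind RNA and direct the splicing of epithelial exon variants, and ELF3 and EHF are ETS factors found mainly in epithelia, ELF3 being abundant in the gut lining.

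Total counts ran from 18057453 to 20531612 per library, and 12604 genes passed the filter on low counts, all 9 members among them. The cells' labelled type was checked by markers listed for it. Of 12 markers of colorectal epithelium 7 passed the filter; KRT8, a keratin of simple epithelia, stood at 4957 ± 795 CPM (counts scaled to library size) in CON (SD) and EPCAM at 276 ± 4.64 CPM, while CDX1, CDH17, CEACAM5, GPA33 and PHGR1 were below the filter. Summed markers of leukocytes ran from 28.2 to 32.8 CPM in CON and 33 to 42.7 CPM in GCA, those of fibroblasts and endothelium from 12 to 13.3 and 17.1 to 18.6 CPM, and those of cardiomyocytes from 23.5 to 27.1 and 37.2 to 42.5 CPM. Most of the cardiomyocyte sum was TNNI3, with MYH6, MYH7 and ACTC1 at 1 count or none in each library, as was PTPRC of leukocytes. MYL2 had 11 to 36 counts, and TNNT2 had 1, 1 and 0 in CON against 2, 11 and 10 in GCA. Of the leukocyte list, CD68 had 271 to 495 counts, and CORO1A rose by 1.16 ± 0.25 (adjusted p = 0.00368). COL1A1, VWF and TNNI3 were also called higher, by 0.44, 1.43 and 0.68 (adjusted p = 0.034, 0.00847 and 0.00136). CD68 (-0.29) and MYL2 (-0.73) did not pass. The COL1A1 and TNNI3 calls were lost with the GC and length correction described below, and the COL1A1 call also without any 1 GCA library. The part of these cell types in the members' values was not tested. In a bulk sample, fewer cells of a type and less RNA per cell cannot be told apart.

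CON 1 stood apart from the other CON libraries on the second principal component (18.1% of the variance), as did GCA 1, less far, among the GCA libraries. CON 1 was the lowest CON library for 7 of the 9 members (all but OVOL2 and ESRP2) and the highest for ESRP2. GCA 1 was the lowest GCA library for 4 members and the highest for 2. How often these libraries were lowest over all genes was not counted. The result of leaving CON 1 out is given where it matters.

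The promoters are shown for GRHL3 and ELF3, the members with the largest differences between the groups, because both stood higher in GCA and their start regions can be set side by side. The sequences are RefSeq's, on GRCh38.p14, both on the plus strand, from 250 bases before the gene's start to 50 bases from it. GRHL3 lies on chromosome 1 (24319357 to 24364482) and its window is chr1:24319107-24319406. ELF3 lies further along the same chromosome (202010587 to 202017183), with the window chr1:202010337-202010636. Capitals mark the E-box CAGGTG, read on either strand, the site known to be bound by the epithelial repressors of the ZEB and Snail families.
GRHL3: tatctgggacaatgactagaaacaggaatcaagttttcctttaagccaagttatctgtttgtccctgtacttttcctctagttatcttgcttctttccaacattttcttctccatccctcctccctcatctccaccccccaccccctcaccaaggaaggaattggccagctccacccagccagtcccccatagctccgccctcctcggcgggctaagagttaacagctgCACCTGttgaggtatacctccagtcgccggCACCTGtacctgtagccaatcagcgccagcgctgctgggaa
ELF3: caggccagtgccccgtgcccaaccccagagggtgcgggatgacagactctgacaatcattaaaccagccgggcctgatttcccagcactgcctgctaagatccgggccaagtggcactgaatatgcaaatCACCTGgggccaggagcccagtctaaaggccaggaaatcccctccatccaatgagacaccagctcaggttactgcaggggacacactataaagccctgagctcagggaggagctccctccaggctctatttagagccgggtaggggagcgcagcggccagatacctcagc

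The GRHL3 window held 2 matches, starting 21 bases before and at base 10 after the start, and the ELF3 window held 1, starting 120 bases before it. Of the 12797 promoters of this length whose genes are were counted, 19.7% held at least 1 match. The search also covered a grainyhead-like site (AACNGGTT, in 1.47% of promoters), an OVO-like site (CCGTTA, 3.88%) and an ETS site (AGGAAGT, 7.98%), on both strands and with no overlap between marked matches. None of these 3 was found in the windows of GRHL3, ELF3, GRHL1 or EHF, the 4 members matched there; the promoters of OVOL1, OVOL2, GRHL2, ESRP1 and ESRP2 were not analysed here. The EHF window (chr11:34624007-34624306) lies inside the gene's annotated span, which starts at 34621093, so its content is not that of the span's first base. In GENCODE release 29 GRHL3 has 8 distinct transcript starts, ELF3 10, GRHL1 6 and EHF 12. Only 1 window a gene was searched, and counts per gene do not show which starts were used. The windows differed in base composition. The GRHL1 window was 79.7% G or C with 52 CpG dinucleotides, above 95.5% of promoters, whereas those of GRHL3, ELF3 and EHF held 53%, 59% and 51.3% G or C and 7, 7 and 8 CpG, against a median of 64.3% G or C over all promoters.

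GRHL3, the family member known for epidermal barrier formation and neural tube and wound closure, differed most between the groups. CON 1 to 3 had counts of 24, 35 and 27, against 456, 613 and 614 for GCA 1 to 3. In CPM these were 1.34, 1.82 and 1.4 in CON against 22.6, 31.2 and 32.2 in GCA. Every GCA library stood above every CON library, and GCA 1 was the lowest of the 3. The log2 fold change, GCA minus CON, was 4.23 ± 0.21 (SE), an 18.7-fold difference that ranked 16 from the top among the 12604 tested genes. Over 17 alternative settings it stayed between 4.14 and 4.39.

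Its 2 relatives did not follow. GRHL2, the member known as a main activator of junction genes in simple epithelia (chromosome 8, 101492439 to 101681200), had CPM values of 14.4, 17.4 and 21 in CON against 18.7, 17.9 and 17.9 in GCA. The 3 GCA values lay inside the range of the CON values, and the log2 difference was 0.05 ± 0.16. GRHL1, linked to the desmosomes of the skin and hair (chromosome 2, 9951693 to 10002277), had CPM values of 5.35, 6.99 and 8.23 in CON against 4.96, 6.06 and 5.6 in GCA. Its groups overlapped, with a log2 difference of -0.31 ± 0.21, and it passed the threshold only without CON 1 (-0.46).

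Per length, the family's makeup differed between the groups. FPKM values divide counts by library total and gene length, so levels of different genes can be compared. GRHL3 held 10.5%, 11.4% and 7.58% of the family's summed FPKM in CON 1 to 3, against 63.4%, 69.6% and 70.8% in GCA 1 to 3. GRHL2 went from 51.5 ± 1.45% (SD) to 20.3 ± 3.41% and GRHL1 from 38.7 ± 1.19% to 11.8 ± 0.727%. The summed FPKM itself was 4.8 ± 1.12 in CON and 12.3 ± 1.62 in GCA, so the lower shares of GRHL1 and GRHL2 stood beside a larger family total. GRHL3 was thus the smallest part of the family in each CON library and the largest in each GCA library. In shares of counts, not corrected for length, GRHL3 held 5.96% in CON and 54.4% in GCA.

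**Figure D1:**
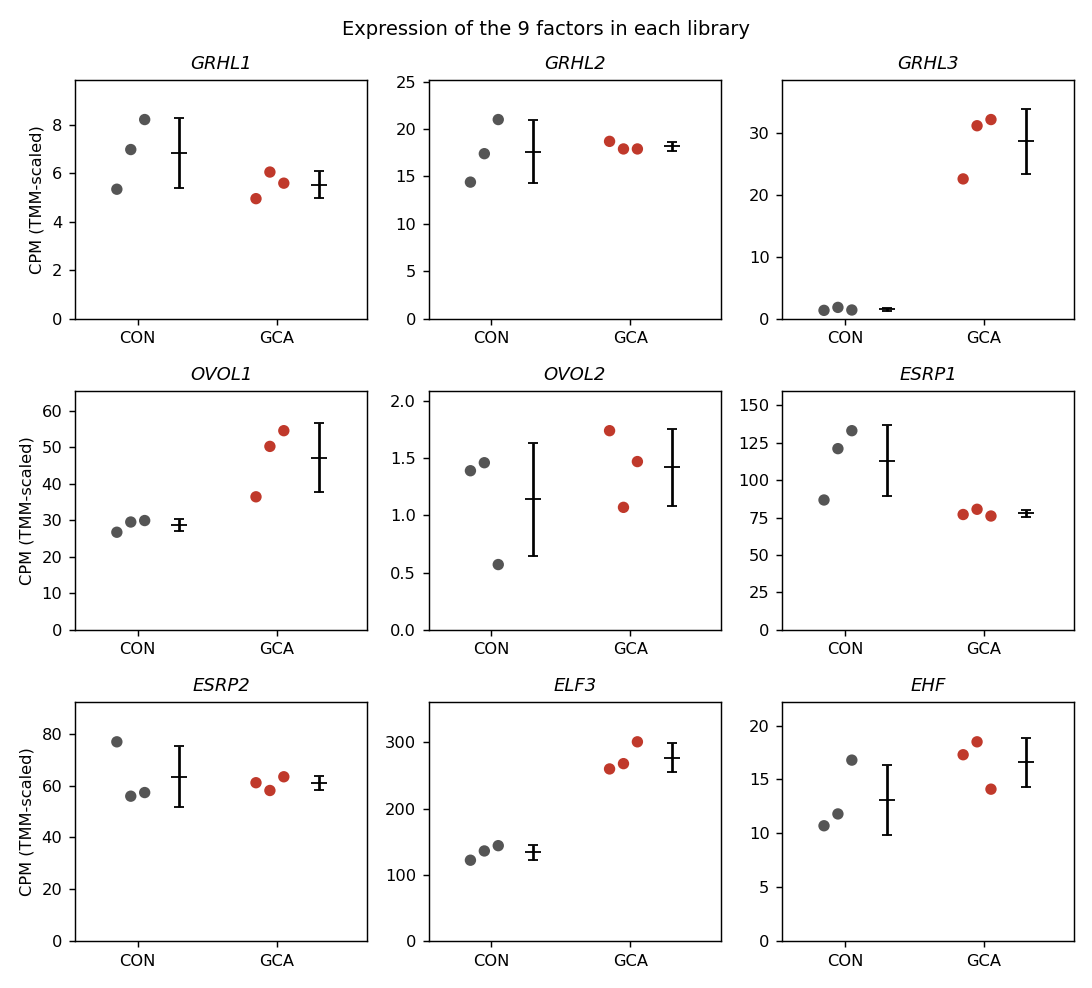
CPM of each of the 9 factors in the 3 CON (grey) and 3 GCA (red) libraries, left to right by replicate, with mean and SD beside the points; each panel has its own axis from 0. GRHL3, ELF3 and OVOL1 show separate groups with GCA higher, and ESRP1 shows CON 1 at 86.7 CPM, close to the GCA libraries.

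**Figure D2:**
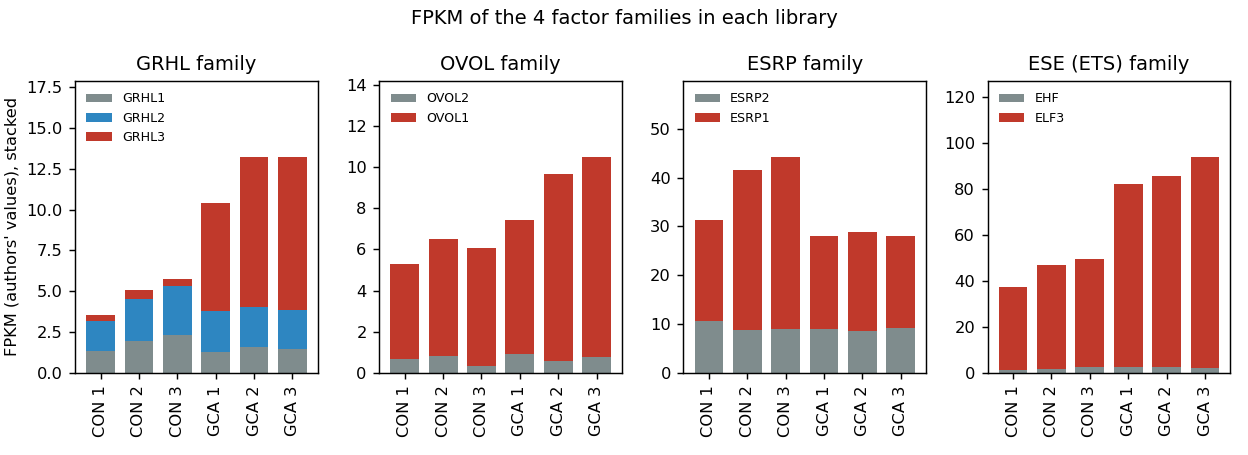
Stacked FPKM of the members of each family (vertical axis) in each library (horizontal axis). GRHL3 fills 63.4% or more of the GRHL column in each GCA library and 11.4% or less in each CON library, while ELF3 holds at least 95.1% of the ELF3 and EHF total in all 6.

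Of the ETS factors, ELF3 was the most abundant of the 9 genes in both groups. Its CPM values were 122, 136 and 144 in CON against 260, 268 and 301 in GCA. The lowest GCA library exceeded the highest CON library by a wide margin compared with the SDs of 11.1 in CON and 21.8 in GCA. The log2 fold change was 1.05 ± 0.12, a 2.07-fold difference, and lay between 0.81 and 1.12 over the alternatives. EHF (chromosome 11, 34621093 to 34663288), its close relative, had CPM values of 10.7, 11.8 and 16.8 in CON against 17.3, 18.5 and 14.1 in GCA. The groups overlapped through CON 3 and GCA 3. The log2 value of 0.34 ± 0.19 did not pass, but it did with the GC and length correction (0.64) and without CON 3 (0.58). EHF made up 4.13 ± 0.696% of the FPKM sum of ELF3 and EHF in CON and 2.63 ± 0.51% in GCA.

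OVOL1, known for the exit of epithelial progenitors from the cell cycle (chromosome 11, 65787063 to 65797214), had CPM values of 26.7, 29.5 and 29.9 in CON against 36.4, 50.2 and 54.5 in GCA. The groups did not overlap, and GCA 1 lay nearer to CON than to the other 2 GCA libraries. The log2 fold change was 0.71 ± 0.15; it stood at 0.42 and missed the threshold with the GC and length correction, and passed under the other 16 alternatives. OVOL2, which restrains the mesenchymal programme in epithelia (chromosome 20, 18024152 to 18059188), was near the lower end of what was measured, with counts of 25, 28 and 11 in CON against 35, 21 and 28 in GCA. Its groups overlapped and its log2 value was 0.32 ± 0.38. At this depth a difference of the size seen for OVOL1 would lie within 2 SE for OVOL2.

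Of the splicing factors, ESRP1 stood lower in GCA and ESRP2 about level. ESRP1 (chromosome 8, 94641174 to 94707466) had CPM values of 86.7, 121 and 133 in CON against 77, 80.5 and 76 in GCA. The groups did not overlap, but CON 1 lay closer to the GCA libraries than to CON 2 and 3. The log2 fold change of -0.54 ± 0.15 became -0.71 without CON 1. It missed the threshold without GCA 1 (-0.52), GCA 3 (-0.53), CON 2 (-0.48) or CON 3 (-0.4), and with the GC and length correction (-0.28; -0.27 with the replicate block as well). ESRP2 (chromosome 16, 68229033 to 68236127) had CPM values of 76.9, 55.9 and 57.3 in CON against 61.1, 58.1 and 63.4 in GCA. Its log2 value was -0.06 ± 0.14, and CON 1 alone lay outside the range of the rest. With the block and the correction together ESRP2 stood at -0.37 and passed the threshold. ESRP1 made up 74.9 ± 7.75% of the pair's FPKM in CON and 68.7 ± 1.58% in GCA. Counts per gene do not show which exon variants these factors left in their target RNAs.

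Counted together, 4 of the 9 members passed the all-gene threshold (edgeR, adjusted p under 0.05), GRHL3, ELF3 and OVOL1 higher and ESRP1 lower in GCA. Of all 12604 tested genes 36.4% passed, 18.3% higher and 18.1% lower. The same 4 members had groups that did not overlap, as did 48.5% of all tested genes. The list was built on this contrast, so nothing is read from these shares. The members' median log2 fold change was 0.32, and that of all tested genes -0.04. With the GC and length correction 3 members stood past the threshold, GRHL3, ELF3 and EHF, and none lower.

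**Figure D3:**
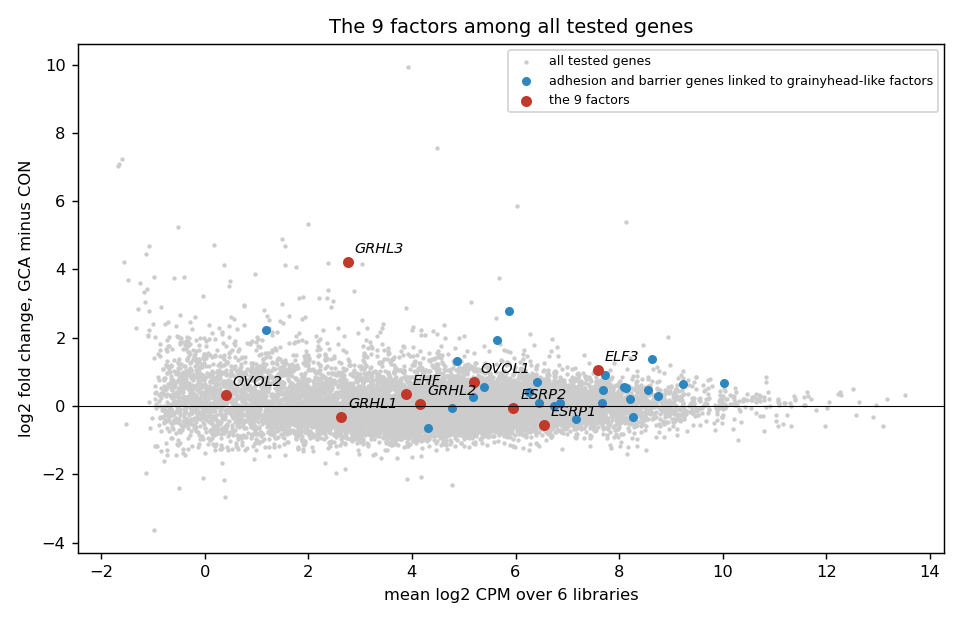
Log2 fold change (GCA minus CON) against mean log2 CPM for all 12604 tested genes (grey), the adhesion and barrier genes linked to grainyhead-like factors (blue) and the 9 factors (red, named). GRHL3 lies at 4.23, above the body of genes of its level, and the other 8 factors lie between -0.54 and 1.05.

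**Figure D4:**
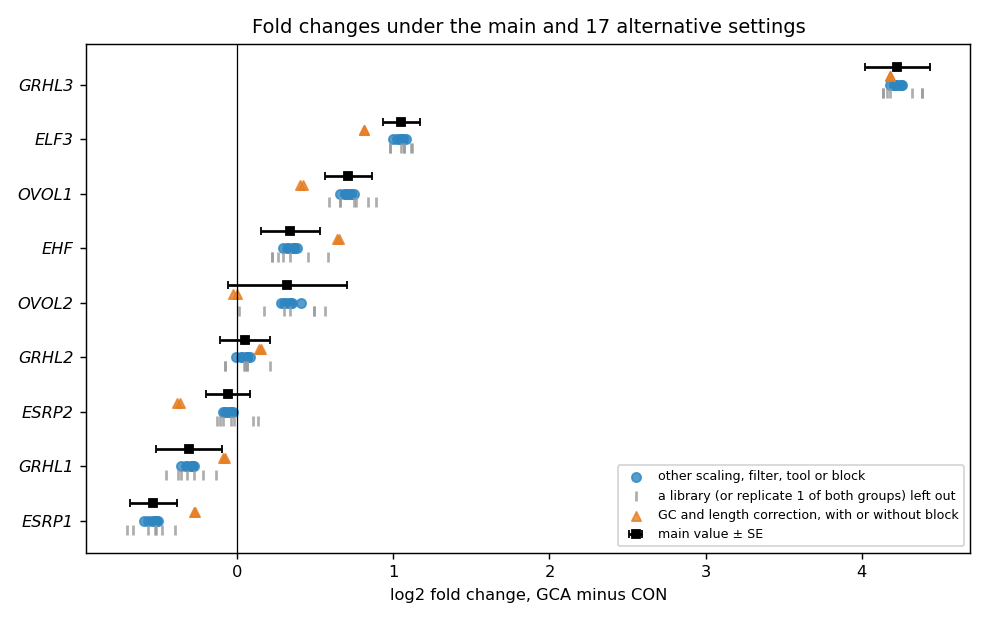
Log2 fold change of each factor (horizontal axis) in the primary test (black square with SE) and under 17 alternatives: blue for other scaling, filter, tool or block, grey ticks for left-out libraries, orange for the GC and length correction. GRHL3 and ELF3 stay clear of 0 under each, and GRHL2, OVOL2 and ESRP2 have values on both sides of it.

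The order of levels changed at its lower end. By mean FPKM in CON the order was ELF3 (42.6 ± 6.03), ESRP1 (29.6 ± 7.82), ESRP2 (9.45 ± 1.07), OVOL1 (5.34 ± 0.662), GRHL2 (2.47 ± 0.589), EHF (1.86 ± 0.538), GRHL1 (1.86 ± 0.488), OVOL2 (0.609 ± 0.262) and GRHL3 (0.462 ± 0.104). The last pair changed places between libraries, as did GRHL1 and EHF. In GCA ELF3 (85 ± 6.44) and ESRP1 (19.5 ± 0.716) still led. ESRP2 (8.86 ± 0.337), OVOL1 (8.46 ± 1.7) and GRHL3 (8.39 ± 1.55) followed within their spread of each other. GRHL2 (2.45 ± 0.0591), EHF (2.27 ± 0.319), GRHL1 (1.45 ± 0.15) and OVOL2 (0.74 ± 0.171) came last. GRHL3 went from above 30.4% of the genes in the table by mean FPKM in CON to above 68% of them in GCA. The other members kept nearer places, from 89.5% to 94.2% for ELF3 and from 85.7% to 80.5% for ESRP1.

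The genes with the most similar profiles over the 6 libraries were found by Pearson's r of log2 CPM, as a description; such an r mostly reflects the difference between the groups. For GRHL3 they were DEPP1 (r = 0.9992), MXD4 (0.9991) and SAMD11 (0.999), whose log2 fold changes were 2.53, 1.96 and 2.07. For ELF3 they were KCNF1 (0.9996), NMRK1 (0.9995) and GPRC5C (0.9993), with log2 fold changes of 1.26, 0.86 and 1.2. Among the 11374 genes compared, 1477 had an r above 0.9 with GRHL3 and 1475 with ELF3.

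Neighbouring genes differed less than GRHL3 and ELF3 themselves in the regions described here for those 2 genes. The 3 nearest protein-coding genes of the table on each side of GRHL3 were tested. STPG1, whose annotated span overlaps that of GRHL3 on the opposite strand without shared exon bases, had a log2 value of -0.07 (adjusted p = 0.743). NIPAL3 and RCAN3 beyond it had 0.20 and 0.10 and did not pass. On the other side IFNLR1, a receptor chain for interferon lambda 132068 bases away, rose by 0.50 ± 0.14 (adjusted p = 0.0123), IL22RA1, a receptor chain for interleukin 22, by 0.62 ± 0.18 (adjusted p = 0.0197) and MYOM3 by 0.53 ± 0.15 (adjusted p = 0.0157). These 3 rises were far smaller than the difference of GRHL3. Beside ELF3, RNPEP at 4444 bases and TIMM17A did not pass (0.18 and -0.23). Near OVOL1 none of 5 tested neighbours passed the edgeR test, with log2 values from -0.10 (MUS81) to 0.26 (AP5B1). Around ESRP1 4 of 6 neighbours fell, RAD54B by 1.29, INTS8 by 0.62, CCNE2 by 0.57 and VIRMA by 0.48. Beside GRHL1, CYS1 rose by 1.75 and RRM2, KLF11 and YWHAQ fell by 1.22, 0.69 and 0.39, and beside EHF, ABTB2 and CAT rose by 1.12 and 0.59. Over all 9 members 49 of 54 neighbours were tested, of which 9 rose and 14 fell, against 18.3% and 18.1% of all tested genes. ELF5, the ETS gene next to EHF, was below the filter with counts of 0, 2 and 3 in CON against 4, 17 and 17 in GCA.

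The counting's strand setting was not given in the sources used here. Whether overlapping antisense genes bear on the counts is therefore not known and was not tested. In GENCODE release 29 the exons of OVOL1 share 1044 of 3849 bases with AP001266.1 and those of ELF3 share 664 of 7191 bases with ELF3-AS1, both on the opposite strand; AL691482.3, on the same strand, also shares 664 with ELF3. These 3 are not among the counted genes. No exon base of GRHL3 is shared with another gene. ESRP2 shares 149 of 5563 exonic bases with NFATC3, which fell by 0.56. OVOL2 shares 59 of 2175 exonic bases with SNX5, on the same strand, which fell by 0.40.

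Of 9 paralogs (the CP2 factors, OVOL3 and further ETS factors) 6 passed the filter. Among these 2 fell and none rose, with a median log2 fold change of -0.37. The share called was 33.3%, near the 36.4% of all tested genes. ELF5, the neighbour of EHF, was below the filter; it was called higher with no filter, without any 1 CON library, without GCA 1 and without both first replicates. UBP1 and TFCP2L1, CP2 factors related to the grainyhead-like genes, fell by 0.61 ± 0.13 and 0.61 ± 0.16 (adjusted p = 0.00317 and 0.00939); the TFCP2L1 call was lost without CON 3 (-0.52). The third CP2 factor, TFCP2, had -0.33 (adjusted p = 0.0604) and passed with the replicate block, which gave 3 falls in all, and without CON 1, and the most abundant ETS paralog, ELF4, -0.07 (adjusted p = 0.696).

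Adhesion and barrier genes known as targets of grainyhead-like factors stood mostly higher in GCA. Of 27 listed genes 26 were tested, 15 rose, 1 (MARVELD2, a tight junction gene, -0.65) fell and 10 did not pass. The median log2 fold change was 0.48. In all 61.5% were called, against 36.4% of all tested genes (18.3% higher and 18.1% lower). This list and the others were written with earlier results of these data known, so such shares are a description and no test. The claudin gene CLDN3 had CPM values of 22.3, 28.2 and 27.2 in CON against 73, 109 and 117 in GCA. CLDN3 and CLDN4, a second claudin gene, rose by 1.94 ± 0.17 and 1.37 ± 0.14, and CGN, the gene of the junction protein cingulin, by 1.3 ± 0.12 (adjusted p = 8.95e-06, 3.02e-05 and 1.17e-05). SPINT2, an inhibitor of membrane serine proteases and the most abundant of the list, rose by 0.68 ± 0.13 to 1325 ± 91.1 CPM, and LSR, a tricellular junction gene, by 0.66 ± 0.14. CDH1, the E-cadherin gene, outside the naming rule, rose by 0.40 ± 0.15 (adjusted p = 0.046), a call lost with upper quartile scaling, with library size alone and without any 1 GCA library, while EPCAM (0.20), RAB25 (0.10), DSP (0.00) and CLDN7 (-0.32) did not pass. With the GC and length correction 10 of the 26 rose and 3 fell (CLDN7, MARVELD2 and SH2D3A), the median was 0.21 and the LSR value went to 0.13 (adjusted p = 0.484). With the replicate block 15 rose and 3 fell (CLDN7, MARVELD2 and MAL2).

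**Figure D5:**
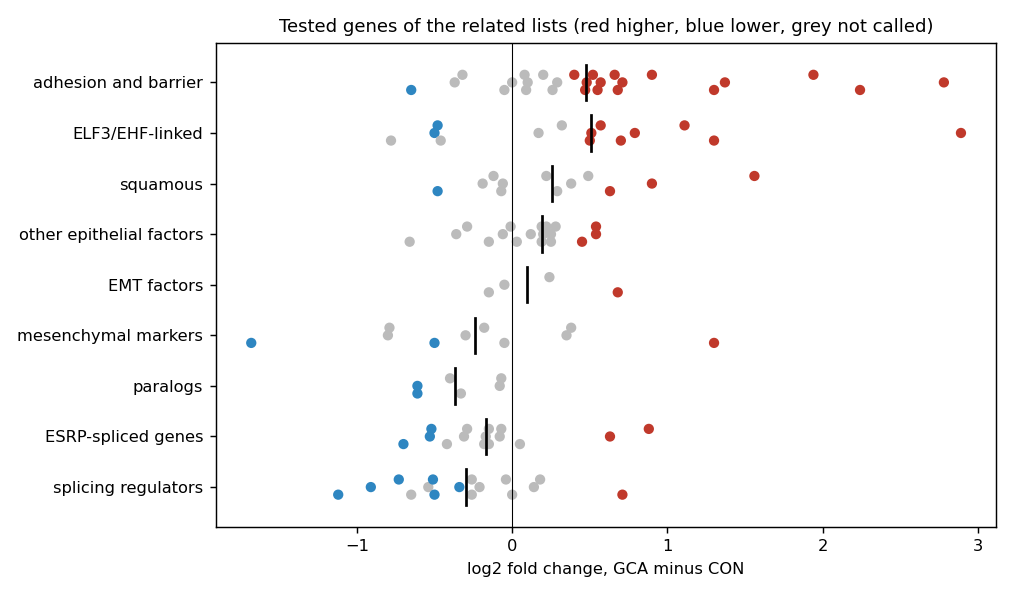
Log2 fold change (GCA minus CON) of the tested genes of each related list, 1 point a gene, coloured by the all-gene edgeR call, with the list's median as a black bar. The adhesion and barrier list has a median of 0.48 and the splicing regulators one of -0.30.

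Among genes reported as targets of ELF3 or EHF, 14 of 19 were tested. Of these 8 rose, 2 fell and the median was 0.50. The share called was 71.4%, against 36.4% of all tested genes. As this list too was written with earlier results of these data known, the share is no test. LCN2, the gene of the iron-siderophore binding protein lipocalin 2, had CPM values of 1.17, 1.98 and 2.8 in CON against 14.3, 14.9 and 15.2 in GCA, a rise of 2.89 ± 0.25 (adjusted p = 6.21e-06). ERBB2, a receptor kinase gene, rose by 0.79 ± 0.12 and BCL3, an IkB-family regulator, by 0.57 ± 0.12 (adjusted p = 0.000345 and 0.00282). The keratin genes KRT18 and KRT8 rose by 0.70 ± 0.15 and 0.50 ± 0.16, and KRT19 had 0.17 (adjusted p = 0.355). The 2 that fell were MET and TNFRSF10B (0.48 and 0.50), outside the naming rule; without CON 2, CON 3, GCA 1, GCA 2 or GCA 3 neither passed, and with the replicate block 3 fell, TGFBR2 being added. The correction left 4 rises, LCN2, CEACAM1, KRT18 and ERBB2, and turned KRT19 to -0.33 (adjusted p = 0.0394). KRT8 missed the threshold with the correction and without any 1 of GCA 2, GCA 3, CON 2 and CON 3 (adjusted p from 0.0701 to 0.166), and without GCA 3 the list had 5 rises.

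Genes of squamous differentiation, a programme linked to GRHL3, GRHL1 and OVOL1 in skin, mostly did not pass. Of 27 listed genes 21 were in the table and 12 were tested. Among these 3 rose, 1 fell and the median was 0.26 (-0.01 with the correction). The share called was 33.3%, near the 36.4% of all tested genes. KRT13, a keratin of stratified epithelia, rose by 1.56 ± 0.19, PPL (periplakin) by 0.90 ± 0.14 and EVPL (envoplakin) by 0.63 ± 0.11 (adjusted p = 9.82e-05, 0.000507 and 0.00106), the last not with the correction (0.19, adjusted p = 0.12). LMO4, a cofactor known to work with GRHL3, fell by 0.48 ± 0.13 (adjusted p = 0.0137) and lost its call with the correction and without CON 3, GCA 2 or GCA 3. CST6, a protease inhibitor gene and 1 of the 2 most abundant of the list, had -0.07 (adjusted p = 0.702) and fell by 0.78 with the correction. TGM1, the transglutaminase of the cornified envelope and a known GRHL3 target, had -0.19 ± 0.31 (adjusted p = 0.649). Without CON 1 the list had 5 rises, and with the replicate block 4, ARHGEF19 being added. Markers of stratified squamous epithelium summed to between 403 and 563 CPM in CON and 556 to 609 CPM in GCA. Most of that was SFN, at 0.36 on the log2 scale (adjusted p = 0.0838, or 0.0303 with the replicate block). Of the 6 markers tested only KRT16 was called, with a rise of 1.34 ± 0.34 (adjusted p = 0.00868), and the median was 0.88. The KRT16 call was lost with the correction. KRT17 (1.86 ± 0.70) and KRT5 (1.54 ± 0.60) did not pass, though both were called with limma-voom. KRT6A, below the filter, went the other way, with counts of 17, 8 and 31 in CON against 8, 4 and 2 in GCA. It was called lower with no filter, without CON 2 and without GCA 1. KRT15, the second most abundant, had -0.19 (adjusted p = 0.299).

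The repressors ZEB1, ZEB2 and SNAI2, which oppose these factors, were below the filter on low counts. Of 13 listed factors of the epithelial to mesenchymal transition 11 were in the table and 4 passed the filter. Only 1 of these 4 was called, or 25%, against 36.4% of all tested genes. ZEB1, the known counterpart of GRHL2 and OVOL2, had counts of 12, 27 and 7 in CON against 6, 10 and 7 in GCA. SNAI3 rose by 0.68 ± 0.21 (adjusted p = 0.0241), a call lost with the correction (0.14) and without any 1 of GCA 2, GCA 3, CON 2 and CON 3. SNAI1 (24.2 ± 1.97 CPM in CON) and TCF3 (333 ± 13 CPM in CON), the most abundant of the list, had log2 values of 0.24 and -0.05 and did not pass; with the correction TCF3 fell by 0.43 (adjusted p = 0.0103). Of 10 tested mesenchymal markers 1 rose and 2 fell (median -0.24), or 30% called, against 36.4% of all tested genes. S100A4, a calcium-binding protein gene, rose by 1.3 ± 0.15 (adjusted p = 6.83e-05), and AXL, a receptor kinase gene, fell by 0.50 ± 0.15 (adjusted p = 0.0183), a call lost without CON 3, GCA 2 or GCA 3. VIM, the vimentin gene, had counts of 147, 439 and 37 in CON against 89, 47 and 66 in GCA; its groups overlapped, and its log2 value of -1.68 ± 0.59 (adjusted p = 0.0395) did not pass without CON 2 (-0.55, adjusted p = 0.385), with DESeq2, limma-voom, library size alone, the block (-1.25, adjusted p = 0.0843), the correction, or any GCA library left out. TAGLN, an actin-binding protein gene, had -0.80 ± 0.45 (adjusted p = 0.178) and was called lower with the block.

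Other transcription factors of epithelial and intestinal cells moved little. Of 24 listed 18 were tested, 3 rose and none fell (median 0.19, or 0.02 with the correction). The share called was 16.7%, below the 36.4% of all tested genes. Without CON 1 4 rose, CDX2 among them, 2 fell (KLF5 and PRDM1) and the median was 0.00; the same 4 and 2 were called without both first replicates. SOX9 rose by 0.54 ± 0.14, TFAP2C by 0.54 ± 0.16 and FOXA3 by 0.45 ± 0.15 (adjusted p = 0.00963, 0.0188 and 0.0305). FOXA3 stood at 0.00 with the correction, and 1 rise was left with library size alone, without GCA 2 or without GCA 3. KLF4 had 0.19 (adjusted p = 0.425), and CDX2, the intestinal master factor, outside the naming rule, 0.25 (adjusted p = 0.131).

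Splicing regulators that act on the same exons as the ESRP proteins were lower more often than higher. Of 16 tested 6 fell and 1 rose (median -0.30, or -0.25 with the correction). The share called was 43.8%, against 36.4% of all tested genes. TIA1 was also called lower with the replicate block. QKI, a promoter of mesenchymal splice forms, had CPM values of 14.1, 22.4 and 20.3 in CON against 8.83, 8.3 and 9.06 in GCA, a fall of 1.12 ± 0.18 (adjusted p = 0.000641). SRSF1, a general splicing activator, fell by 0.91 ± 0.12 and CELF1 by 0.50 ± 0.11 (adjusted p = 0.000135 and 0.00535). RBM47, an RNA-binding protein of epithelia, had CPM values of 15.8, 19.4 and 18.4 in CON against 30.5, 27.9 and 29.4 in GCA, a rise of 0.71 ± 0.13 (adjusted p = 0.00157). PTBP1 and HNRNPA1, the most abundant, had -0.26 each and did not pass; PTBP1 did with the correction (-0.61, adjusted p = 0.0107).

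Of 15 genes whose exons the ESRP proteins are known to splice 2 rose and 3 fell (median -0.17). The share called was 33.3%, near the 36.4% of all tested genes. EXOC7 and SLC37A2 rose by 0.63 ± 0.12 and 0.88 ± 0.20 (adjusted p = 0.00159 and 0.0045), and ENAH, LAS1L and MAP3K7 fell by 0.52 ± 0.12, 0.70 ± 0.17 and 0.53 (adjusted p = 0.00465, 0.00794 and 0.0175). The ENAH call was lost with the correction (-0.19) and the LAS1L call without GCA 3. MAP3K7 did not pass with the correction or without CON 2, CON 3, GCA 1 or GCA 3. CD44 and SCRIB, the most abundant, had 0.05 and -0.15 and did not pass. Without CON 1 6 of these genes fell, and without GCA 3 1 did.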

How the data were processed

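The authors deposited raw counts per gene symbol and FPKM values for the same 16229 genes in 6 libraries. Per the submitters' processing notes the build was hg38 and the tools included HTSeq 0.11.2, HISAT2 2.2.1.0 and fastp 0.20.1, with no roles given; annotation and strand setting were not given in the sources used here. Dividing counts by library total and 1 length a gene returns the deposited FPKM values (relative difference under 1e-09), so FPKM was used only to set genes side by side.

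Counts were tested with edgeR 4.0.16 in R 4.3.3 (TMM, filterByExpr with minimum count 10 and minimum total 15, quasi-likelihood test, Benjamini-Hochberg at 0.05) and no covariate; the code was tested on simulated data. A standard error is the log2 fold change over the square root of F. CPM uses TMM-scaled library sizes, and 3 counts in a library are 0.149 to 0.167 CPM, a floor that covers counting error only. Replicates differed by more than counting noise, with a chi-square per gene from 4.87 to 45.8. Same-numbered libraries of the groups had deviations across genes with r = 0.206, 0.137 and 0.104, against -0.172 to 0.095 for other pairs. Every matched value thus lay above every unmatched one, though the lowest matched value lay close to the highest unmatched one. No label says that the numbers mark a shared batch, and whether they do was not tested further. The primary test was therefore unpaired, with the replicate block as an alternative. Block values are given where they change a call.

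The GC and length correction fits, per library, a smooth (mgcv 1.9.3) of log2 CPM deviation on GC content (GENCODE 29 transcripts, 99.2% of genes) and length. Log2 fold changes correlated with GC content across genes (r = 0.48). Other alternatives were 3 normalizations, 2 filters, DESeq2 1.42.0, limma-voom (limma 3.58.1), the replicate block, each library left out, and replicate 1 of both groups left out. Members and lists were chosen with earlier results of these data known. Named are the members and, per gene list, the 4 genes of lowest p past the threshold and the 2 most abundant; per marker list the 2 most abundant; and the 3 most similar profiles for each member with a log2 fold change of at least 1. Neighbours, and genes said to lie outside this rule, were added. Genes under this rule or beside a member that are withheld are not reported here.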

Additional observations from a re-analysis of the deposited data

How the results depend on the processing

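Over 17 alternatives, 133 of the members' 152 recomputed values kept their sign and their side of the threshold, 7 lost the call, 5 gained it and 7 uncalled values changed sign. GRHL2 went to -0.01 with library size alone and to -0.08 without CON 1 or without replicate 1 of both groups. OVOL2 went to -0.03 with the GC and length correction and to -0.00 with the block added, and ESRP2 to 0.10 without CON 1 and 0.13 without both first replicates. Among other named genes, signs changed with the correction, block or not, for SNAI1 (-0.14), KRT19 (-0.33) and SFN (-0.15), and without the block for KLF4 (-0.02). They changed without CON 1 for CST6 (0.00), KLF4 (-0.01) and CD44 (-0.12), without both first replicates for KLF4 (-0.02) and CD44 (-0.15), with library size alone for CD44 (-0.01), without CON 3 for ELF4 (0.02) and without GCA 2 for TCF3 (0.03). With 1 library left out, the ranges were -0.08 to 0.21 for GRHL2, -0.13 to 0.10 for ESRP2, -0.16 to 0.00 for CST6, -0.09 to 0.03 for TCF3, -0.01 to 0.39 for KLF4 and -0.12 to 0.17 for CD44. The causes were not tested.

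All calls numbered 4584 and ran from 2621 (without GCA 3) to 6707 (without CON 1), with 3029 without CON 2 and 7419 without both first replicates. Higher calls ran from 1493 to 3225 and were 1520 with the correction and 3710 without both first replicates; lower calls ran from 1128 to 3482, and were 3709 without both. The replicate block gave 5163 calls and, among the genes named by the rule, changed the calls of VIM and SFN and no other; among other listed genes it added TFCP2, CLDN7, MAL2, TAGLN, TIA1 and TGFBR2 as lower and ARHGEF19 as higher; with the correction 1761 higher and 2641 lower. Members called lower ran from 0 to 2, with 0 under the correction; members called higher ran from 3 to 4. Listed genes called higher numbered 34 (25 to 41 with 1 library left out, 24 with the correction, 42 without both first replicates), and those called lower 17 (8 to 30; 34 without both first replicates). By counts in place of FPKM, GRHL1, GRHL2 and GRHL3 held 26.3%, 67.7% and 5.96% of the family in CON and 10.6%, 35% and 54.4% in GCA. By FPKM, leaving out a library gave GRHL1 38.1 to 39.3% and 11.5 to 12.2%, GRHL2 51 to 52.3% and 18.3 to 21.3%, and GRHL3 9.04 to 10.9% and 66.5 to 70.2%. Depth limits OVOL2, with 11 to 35 counts a library.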

Other observations

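Within CON, several mesenchymal genes were highest in CON 2. VIM had 439 counts there against 147 and 37 in CON 1 and 3, CDH2 30 against 15 and 1, ZEB1 27 against 12 and 7, and TCF4 23 against 6 and 1. Of the 17 mesenchymal markers in the table, CON 1, 2 and 3 were the highest CON library for 4, 6 and 7, so CON 2 did not stand out over the list; these genes were picked after their values were seen. ESRP1 and ELF3 were not low in that library, at 121 and 136 CPM.

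Some barrier genes near the floor had more counts in GCA. TMPRSS2 had 0 in each CON library and 3, 1 and 2 in GCA, IVL (involucrin) had 0 and then 4, 3 and 4, and CLDN1 had 0, 1 and 2 in CON and 8, 9 and 11 in GCA. All 3 were below the filter and were picked after their values were seen. With no filter IVL and CLDN1 were called higher by edgeR, which is no test of genes picked in this way. KRT6A, a squamous marker also below the filter, was called lower with no filter.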
